A study of Mus musculus with 8 samples.

Results

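Potassium channel genes were taken as the mouse protein-coding genes whose symbol begins with Kcn, and were read by the probes whose RefSeq accession belongs to such a gene. All 94 genes of that name in the RefSeq table were on the array, with 127 of its 55681 non-control probes. Of these genes, 62 had 1 probe, 31 had 2 and 1 had 3. A gene was tested if a probe was well above background, by the flag of the scanner software, on at least 2 of 8 arrays, which 54 of the 94 genes met. That is 57.4% of the potassium channel genes, against 75.3% of all genes with a symbol. In all, 26247 genes were tested.

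Potassium channels let potassium leave the cell along its gradient and so hold the resting potential, end the action potential and set how often a neuron fires. Voltage-gated channels (Kv, KCNQ and EAG families) open on depolarisation, BK, SK and Slack channels open with intracellular calcium or sodium, inward rectifiers (Kir) and K2P channels pass current near rest, and auxiliary subunits change the gating and surface expression of the pores. In sympathetic neurons and neuroblastoma cells, KCNQ channels carry the M current, which muscarinic acetylcholine receptors shut, and ERG channels of the EAG family contribute to the resting potential.

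The cells were the 2/4 clone with retinoic acid (RA), the untreated 2/4 clone, parental N18TG2 with RA and untreated parental N18TG2, with 2 arrays of total RNA in each of the 4 groups. N18TG2 is a mouse neuroblastoma line, and the 2/4 clone is a line derived from it labelled as expressing ChAT (choline acetyltransferase), which synthesises acetylcholine. By the labels, all-trans RA was at 1 µM and serum then lowered to 1%, growth medium for both lines held 10% serum, and G418 (200 µg/mL) was added for the clone. The labels name a single clone, and give neither the duration of RA nor the serum of the untreated cells, so RA and low serum, and the clone and G418, cannot be told apart. Nothing in them says that the arrays of 1 group stem from different cultures, and a p-value here covers only array-to-array spread, which may be technical.

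Values below are log2 of the background-subtracted spot intensity relative to the 75th percentile of the array, so that 0 is the level of that percentile, and levels of different probes are not compared. A gene passed the test if its limma p, adjusted over all 26247 genes, was under 0.05. Differences are given on the log2 scale with their standard error (±) and adjusted p. The 75th percentile ran from 265 to 1264 intensity units. Clone RA replicate 1 stood apart, with 71.7% of probes well above background against 47.7% to 62.8% on the other 7 arrays, and its replicate pair correlated at 0.963 across genes, against 0.983 to 0.987 for the other pairs. Slide row went with RA within each line and with the line within each treatment, so row and these comparisons cannot be told apart, and it cancelled only in the averages over both treatments or both lines. Chat read 1.1 and -2.58 in the clone with RA, -3.73 and -2.71 in the untreated clone, -3.22 and -5.06 in parental cells with RA and -2.63 and -4.57 in untreated parental cells, and its line difference did not pass (0.38 untreated and 3.4 with RA, adjusted p = 0.897 and 0.0995). The extraction protocol names hippocampus, so cell type markers were read, with sums, carried by the brightest probes, to be set between arrays within a list only. All 12 sympathoadrenal markers were above background on every array, with summed scaled intensities of 289 to 548 (clone) and 99.1 to 314 (parental). Of 10 hippocampal markers, 3 to 6 were above background on an array (summed 4.75 to 13.5 for the clone and 4.74 to 6.07 for parental cells), with Gad1, Neurod6 and Prox1 on none. Of 10 glial markers 5 to 8 were above background (0.773 to 1.0 for the clone and 1.02 to 1.96 for parental cells), with Foxd3 on none. Of 9 vessel, microglia and blood markers 4 to 6 were (1.81 to 2.31 for the clone and 0.953 to 2.59 for parental cells), with Cdh5, Cx3cr1 and Tek on none, and of 6 fibroblast markers 2 to 5 (1.08 to 1.41 for the clone and 0.579 to 1.17 for parental cells), with Lum on none. The part of these markers in the results was not tested.

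Detection of potassium channel genes varied between arrays, and was highest on clone RA replicate 1. In the clone with RA, 63 and 49 of the 94 genes had a probe well above background on replicates 1 and 2, against 46 and 44 in the untreated clone, 41 and 49 in parental cells with RA and 38 and 44 in untreated parental cells. The groups overlapped, and the pair of clone RA arrays was the widest apart. In all, 31 genes were above background on all 8 arrays, 23 on none and 40 on some. Both arrays of a group detected 45 genes in the clone with RA, 43 in the untreated clone, 40 in parental cells with RA and 37 in untreated parental cells (47.9%, 45.7%, 42.6% and 39.4% of 94, against 69.3%, 68.3%, 66.6% and 63.1% of all genes with a symbol). Clone RA replicate 1 alone of its pair detected 18 genes and replicate 2 alone detected 4. For 12 genes that replicate was the only array with a detected probe: Kcnn1, Kcnh7, Kcnh8, Kcnk18, Kcnj3, Kcne4, Kcnip4, Kcna10, Kcnb2, Kcnq1, Kcnf1 and Kcns1. The part of the brightness of that array in these detections was not tested. Genes on no array included the delayed rectifiers of axons Kcna1 and Kcna2, the fast-spiking channel Kcnc2, the KCNQ pore Kcnq3, the EAG pores Kcnh1 and Kcnh5, the classical inward rectifier Kcnj2 and the TREK pores Kcnk2 and Kcnk10.

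**Figure D1:**
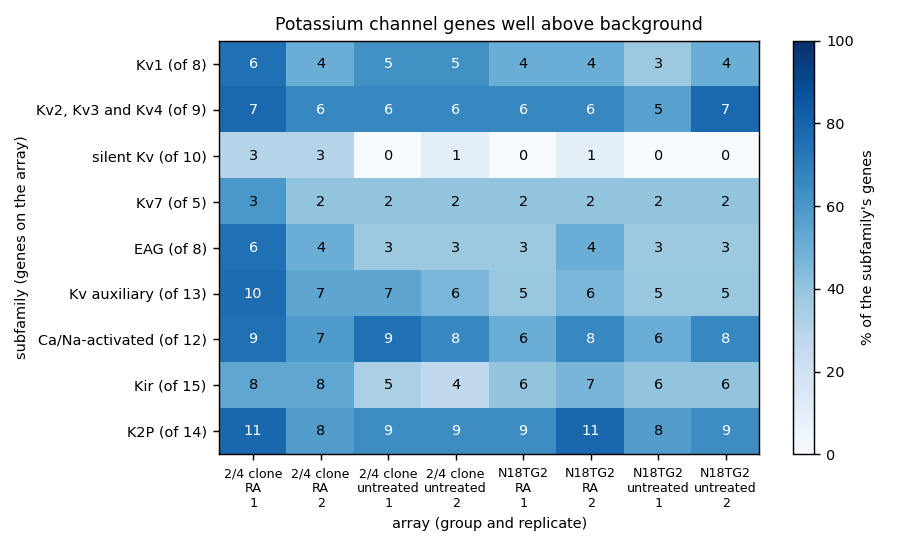
Number of potassium channel genes with a probe well above background on each array (columns, by group and replicate), by subfamily (rows, with the number of genes on the array), coloured by the percentage of the subfamily. The column of clone RA replicate 1 sums to 63 genes, against 38 to 49 on the other arrays.

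The 250 bases before the transcript starts of the 3 genes below are shown as examples, and not as the strongest calls. Kcnj4 was far lower in the clone, Kcnh6 was higher with RA in the clone, and Kcnmb2 moved in opposite directions with RA in the lines. The sequences are from RefSeq (GRCm38.p6) and read 5′ to 3′ towards the start. Capitals mark TTCAGCACC and GGACAG, the left and right parts of the site of REST, a repressor of neuronal genes.
Kcnj4 (chr15:79505242-79505491, minus strand): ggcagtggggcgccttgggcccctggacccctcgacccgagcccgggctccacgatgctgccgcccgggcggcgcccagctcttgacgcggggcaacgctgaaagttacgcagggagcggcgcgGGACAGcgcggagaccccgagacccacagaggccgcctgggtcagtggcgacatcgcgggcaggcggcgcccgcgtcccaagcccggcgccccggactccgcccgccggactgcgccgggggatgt
Kcnh6 (chr11:106007898-106008147, plus strand): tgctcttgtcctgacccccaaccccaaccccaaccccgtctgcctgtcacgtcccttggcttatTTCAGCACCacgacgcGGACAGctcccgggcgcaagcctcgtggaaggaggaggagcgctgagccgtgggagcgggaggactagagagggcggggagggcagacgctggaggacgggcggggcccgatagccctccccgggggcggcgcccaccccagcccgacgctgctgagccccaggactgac
Kcnmb2 (chr3:31902453-31902702, plus strand): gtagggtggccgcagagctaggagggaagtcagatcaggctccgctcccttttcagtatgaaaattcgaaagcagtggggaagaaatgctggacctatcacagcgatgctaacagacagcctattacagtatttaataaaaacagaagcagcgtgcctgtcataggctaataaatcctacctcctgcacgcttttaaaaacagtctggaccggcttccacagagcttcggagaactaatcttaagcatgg
Kcnh6 held both with 7 bases between them, Kcnj4 held GGACAG alone, and Kcnmb2 held neither. GC content was 77.2% for Kcnj4, 70.8% for Kcnh6 and 47.2% for Kcnmb2. Of the 94 genes, 69 matched the promoter table, with 94 windows. On either strand, TTCAGCACC was in 1.06% of these windows (1 window) against 0.301% of all 32851 windows of that length, and GGACAG in 23.4% against 18.7%. The retinoid half-site AGGTCA was in 6.38% against 14%, and the TATA sequence TATAAA in 3.19% against 12.4%. Direct repeats of retinoid half-sites (AGGTCA or AGTTCA or GGGTCA or GGTTCA) with 5, 2 or 1 bases between were in 0 windows of these genes, against 0.0883%, 0.174% and 0.164% of all windows.

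Comparing the clone with the parental line asks how the line labelled as expressing ChAT differs, though the Chat probe did not separate the lines past the threshold. It gave the most differences among the potassium channels. With RA, 16 genes were higher and 5 lower in the clone, 38.9% of the 54 tested, against 23.2% of all genes tested (12.9% higher and 10.2% lower). Without RA, 4 were higher and 5 lower, 16.7% against 9.84% of all genes (6.14% higher and 3.7% lower). Averaged over both treatments, 16 were higher and 8 lower, 44.4% against 27.7% (16.1% higher and 11.6% lower). Both counts of 16 include Kcng4, which passed the filter only through the clone RA arrays, and Kcnip2, which passed it only through clone arrays. Both also include Kcnh6, kept through the clone RA arrays and parental RA replicate 2. The average count further includes Kcnj15, kept through those same arrays. The genes that were lower included the inward rectifiers Kcnj4 and Kcnj14 and the SK channel Kcnn2, and those higher included the Kv subunit Kcnab1, the sodium-activated channel Kcnt1 and the inward rectifier Kcnj12. In RNA from whole cultures, fewer cells expressing a gene and less of its RNA per cell cannot be told apart. The median difference over the 54 genes was 0.42 with RA, 0.15 without and 0.26 on average, beside 0.11, 0.11 and 0.12 over all genes. Among the 31 genes above background on all arrays, 9 were higher and 2 lower with RA (28.2% of all such genes called), and 3 and 3 without (10.9%). Leaving out 1 array changed the count with RA by over 1.5 times for parental RA replicate 1 (13 genes), and without RA for untreated clone replicate 2 (4) and each untreated parental replicate (5). The average count was 13 without untreated clone replicate 1 and 15 without untreated clone replicate 2.

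Differences without RA and with RA rest on separate arrays. They had the same sign for 40 of the 54 genes (74.1%, against 73.7% of all genes) and correlated at 0.77 across these genes, against 0.7 across all genes, which are not independent replicates. Passing both tests were 8 genes, Kcnj4, Kcnj14, Kcnn2, Kcnu1, Kcnab1, Kcnj12, Kcnt1 and Kcnmb2. Of these only Kcnmb2 lay on opposite sides of 0. The share of all genes passing both tests was not computed, so the count of 8 is not read as a result. The plot of the line differences shows these genes.

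**Figure D2:**
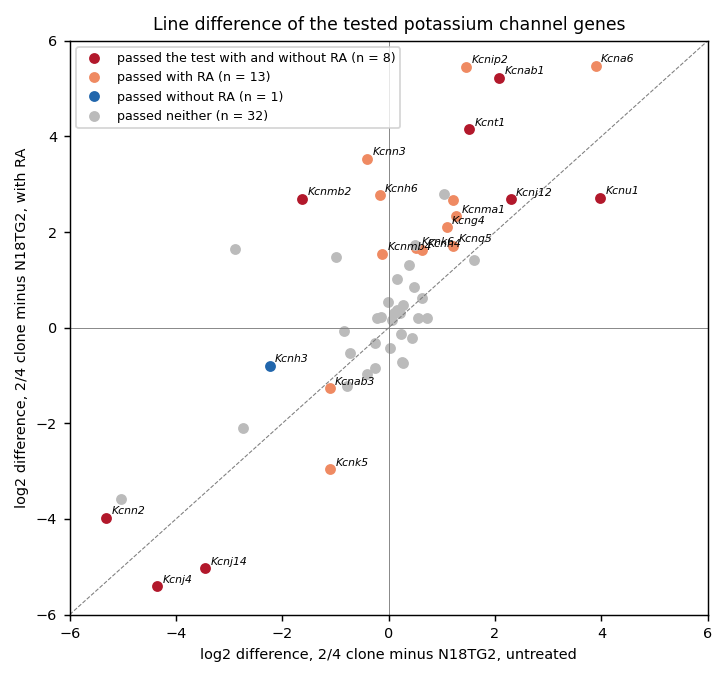
Log2 difference of the 2/4 clone minus N18TG2 in untreated cells (x) and with RA (y) for the 54 tested potassium channel genes, coloured by whether the gene passed limma's test in both, with RA, without RA or in neither; not every point is named. Kcnj4, Kcnn2 and Kcnj14 lie at the lower left and Kcnab1, Kcnt1, Kcnu1 and Kcnj12 at the upper right, while Kcnmb2 lies at the upper left; values of genes below background in a group are fitted values, not bounds.

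Among the voltage-gated pores, Kcnq5 and Kcna6 were higher in the clone with RA. Kcnq5, a KCNQ pore, read -1.47 and -0.87 in the clone with RA, -2.18 and -1.64 in the untreated clone, -3.53 and -2.24 in parental cells with RA and -2.82 and -3.41 in untreated parental cells. The lines did not overlap, with 1.71 ± 0.5 with RA (adjusted p = 0.0482) and 1.21 ± 0.5 without (adjusted p = 0.2). That call was lost without either clone RA replicate, either untreated clone replicate, either untreated parental replicate or parental RA replicate 1, where it was 1.07 (adjusted p = 0.184). Against 23.2% of all genes with RA, 1 of 5 Kv1 genes tested passed, Kcna6, a delayed rectifier of axons. It read -0.41 and -2.79 in the clone with RA, -0.66 and -0.95 in the untreated clone, -5.79 and -8.34 in parental cells with RA and -6.73 and -2.67 in untreated parental cells. It was below background on both parental RA arrays, so it was at least 19.3-fold higher in the clone with RA (adjusted p = 0.0362), or 8.47-fold without clone RA replicate 1 and 44-fold without replicate 2, and untreated parental replicate 2 overlapped the clone. Without parental RA replicate 2 its difference with RA was 4.19 (adjusted p = 0.182), and the call was also lost without parental RA replicate 1, clone RA replicate 1 or either untreated clone replicate.

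EAG family pores moved in both directions. Kcnh3 (Kv12 family, an ELK channel of forebrain neurons) read -1.4 and -1.58 in the clone with RA, -1.41 and -1.54 in the untreated clone, -0.49 and -0.89 in parental cells with RA and 1.01 and 0.52 in untreated parental cells. Each clone array lay below each parental array, and the untreated difference was -2.24 ± 0.3 (adjusted p = 0.00515), while with RA it was -0.8 ± 0.3 (adjusted p = 0.104). Without untreated clone replicate 2 the untreated difference was -2.18 (adjusted p = 0.0575). Kcnh4, another ELK pore, read 0.61 and 0.58 in the clone with RA, -0.26 and -0.04 in the untreated clone, -1.34 and -0.7 in parental cells with RA and -0.81 and -0.75 in untreated parental cells. Its clone arrays were all above its parental arrays, by 1.62 ± 0.3 with RA (adjusted p = 0.0103) and 0.63 ± 0.3 without (adjusted p = 0.27). Kcnh6, an ERG pore, is described with RA below, and Kcnh2, the main ERG pore, did not pass (0.63 ± 0.3 with RA, adjusted p = 0.183). Kcng4, a silent subunit that needs Kv2 pores to form a channel, read -4.31 and -5.4 in the clone with RA, -6.16 and -5.91 in the untreated clone, -6.95 and -6.97 in parental cells with RA and -6.43 and -7.83 in untreated parental cells. Only the clone RA arrays were above background, so Kcng4 entered the test through the group where it was high, and its call is no independent support. It was at least 2.02-fold higher there than in parental cells with RA (adjusted p = 0.0314). Leaving out clone RA replicate 1 gave 1.56 (adjusted p = 0.104), and the call was also lost without either parental RA or either untreated clone replicate.

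Of 8 Kv auxiliary subunits tested, 2 were higher and 1 lower in the clone with RA (12.9% and 10.2% of all genes), and 1 was higher without (6.14% of all genes). Kcnab1, a cytoplasmic beta subunit that speeds the inactivation of Kv1 channels, read 3.49 and 4.1 in the clone with RA, 2.43 and 2.8 in the untreated clone, -1.31 and -1.56 in parental cells with RA and 0.65 and 0.43 in untreated parental cells. The lines were far apart in both treatments, by 5.23 ± 0.32 with RA (37.6-fold, adjusted p = 0.000166) and 2.07 ± 0.32 without (4.2-fold, adjusted p = 0.00893). The untreated call was lost without untreated clone replicate 2 (1.89, adjusted p = 0.0872) or either untreated parental replicate (2.18 and 1.96, adjusted p = 0.0532 and 0.0685). Kcnip2, a calcium-binding partner of Kv4 pores (KChIP), read -0.24 and -4.45 in the clone with RA, -5.22 and -6.15 in the untreated clone, -7.33 and -8.29 in parental cells with RA and -6.63 and -7.64 in untreated parental cells. The clone RA arrays differed widely from each other but both lay above all parental arrays, where the gene was below background, and it was at least 11.5-fold higher in the clone with RA (adjusted p = 0.0206). That bound was 2.68-fold without clone RA replicate 1 and 49.6-fold without replicate 2. Kcnip2 passed the filter only through arrays of the clone, the line where it was high, so its line calls are no independent support. Without parental RA replicate 1 or 2 the call was lost (5.95 and 4.98, adjusted p = 0.073 and 0.114). Kcnab3, another beta subunit, read -3.63 and -4.4 in the clone with RA, -3.48 and -2.94 in the untreated clone, -2.68 and -2.83 in parental cells with RA and -2.17 and -2.03 in untreated parental cells. Within each treatment its clone arrays were lower, by -1.27 ± 0.36 with RA (adjusted p = 0.0432) and -1.11 ± 0.36 without (adjusted p = 0.108). The call with RA was lost on leaving out any array but clone RA replicate 1, and was -0.88 (adjusted p = 0.134) without clone RA replicate 2. Kcnip3, a KChIP also known as the transcriptional repressor DREAM, passed only on average over both treatments. That call is of its brighter probe, and its second probe, given below, showed no such difference. By the brighter probe its levels were 1.09 and 1.15 in the clone with RA, 1.69 and 1.74 in the untreated clone, 2.35 and 1.81 in parental cells with RA and 2.07 and 2.17 in untreated parental cells, a difference of -0.68 ± 0.2 (adjusted p = 0.044). The lines did not overlap, though the call was lost on leaving out any array but parental RA replicate 2 (-0.71 to -0.55).

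Calcium-activated and sodium-activated channels were the subfamily with the most calls: with RA, 6 of the 8 genes tested were higher and 1 was lower in the clone, and without RA 2 were higher and 2 lower. Of all genes, 12.9% were higher and 10.2% lower with RA, and 6.14% and 3.7% without. Kcnn2, an SK pore that carries the medium afterhyperpolarisation, read -4.22 and -3.69 in the clone with RA, -4.32 and -3.92 in the untreated clone, 0.14 and -0.08 in parental cells with RA and 1.39 and 1.0 in untreated parental cells. No array of one line came near the other, and the clone was lower by -3.98 ± 0.33 with RA (15.8-fold, adjusted p = 0.000427) and -5.32 ± 0.33 without (39.9-fold, adjusted p = 0.00027). Kcnn3, another SK pore, read -2.8 and -1.2 in the clone with RA, -4.98 and -4.08 in the untreated clone, -5.91 and -5.15 in parental cells with RA and -4.41 and -3.83 in untreated parental cells. Only the clone RA arrays stood above the rest. The difference with RA was 3.53 ± 0.61 (adjusted p = 0.00724), with parental RA replicate 1 below background, and without that array it was 3.15 (adjusted p = 0.0513).

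Kcnu1, the pore of Slo3, a pH-sensitive relative of BK known from sperm, read -1.4 and -1.31 in the clone with RA, -0.46 and -0.1 in the untreated clone, -3.59 and -4.53 in parental cells with RA and -4.41 and -4.1 in untreated parental cells. The clone was higher on every array, by 2.71 ± 0.37 with RA (adjusted p = 0.003) and 3.97 ± 0.37 without (adjusted p = 0.00111). Kcnma1, the BK pore, read -3.08 and -2.65 in the clone with RA, -3.98 and -4.41 in the untreated clone, -5.94 and -4.44 in parental cells with RA and -5.95 and -4.97 in untreated parental cells. Clone arrays were all above parental arrays, although by little for untreated clone replicate 2 against parental RA replicate 2, and 1 array of each parental group was below background. The difference was 2.33 ± 0.56 with RA (adjusted p = 0.0262) and 1.27 ± 0.56 without (adjusted p = 0.231), and the call was lost without parental RA replicate 1 (1.57, adjusted p = 0.0996), clone RA replicate 2 (2.11, adjusted p = 0.0527) or either untreated clone replicate (2.33, adjusted p = 0.0505).

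Of 8 inward rectifiers tested, 1 was higher and 2 were lower in the clone in each treatment. The shares over all genes were 12.9% and 10.2% with RA, and 6.14% and 3.7% without. Kcnj4 (a strong rectifier of the Kir2 group) read -5.52 and -4.82 in the clone with RA, -4.54 and -4.43 in the untreated clone, 0.14 and 0.36 in parental cells with RA and 0.13 and -0.39 in untreated parental cells. Every clone array lay far below every parental array, and clone RA replicate 1 was below background. The differences were -5.41 ± 0.34 with RA (adjusted p = 0.000185), of which the clone side was measured on 1 of 2 arrays (-5.06 on that array alone), and -4.35 ± 0.34 without (20.5-fold, adjusted p = 0.000584), and both calls held under all 17 alternatives run. Kcnj12, another Kir2 pore, went the other way and read 1.92 and 3.18 in the clone with RA, 1.36 and 2.07 in the untreated clone, -0.24 and -0.02 in parental cells with RA and -0.42 and -0.73 in untreated parental cells. The lines did not overlap, with 2.68 ± 0.47 with RA (adjusted p = 0.00775) and 2.29 ± 0.47 without (adjusted p = 0.0254). The untreated call was lost without any 1 of the untreated or parental arrays, and was 1.93 (adjusted p = 0.178) without untreated clone replicate 2.

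Kcnj10, the Kir pore of glia, passed only on average over both treatments. It read -4.34 and -8.27 in the clone with RA, -5.51 and -8.14 in the untreated clone, -2.44 and -3.01 in parental cells with RA and -1.43 and -2.14 in untreated parental cells. Replicate 2 of each clone group was below background and the clone pairs were wide apart, yet all 4 lay below all parental arrays. The average difference was -4.31 ± 0.93 (adjusted p = 0.0143), and it was lost without untreated clone replicate 2, parental RA replicate 1 or untreated parental replicate 1 (-3.65, -4.17 and -4.13, adjusted p = 0.051, 0.0581 and 0.0521). Glial markers summed to 0.773 to 1.0 for the clone and 1.02 to 1.96 for parental cells, and their part in this difference was not tested. Kcnj15, a Kir pore of epithelia, read -4.04 and -5.31 in the clone with RA, -5.4 and -5.64 in the untreated clone, -6.52 and -5.68 in parental cells with RA and -6.62 and -7.63 in untreated parental cells. It was above background on both clone RA arrays and parental RA replicate 2 only. All clone arrays lay above all parental arrays, the nearest pair being almost level. Its average difference was 1.51 ± 0.39 (adjusted p = 0.0277), lost without either untreated clone replicate, parental RA replicate 1 or untreated parental replicate 2 (1.26 to 1.57), and -0.01 after normexp background correction.

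Of 11 K2P leak channels tested, 1 was higher and 1 lower in the clone with RA (12.9% and 10.2% of all genes), and 0 passed without RA (9.84% of all genes). These counts are not read as a result about the subfamily. Kcnk5 (TASK-2, an alkaline-activated leak pore) read -5.56 and -6.98 in the clone with RA, -5.35 and -5.39 in the untreated clone, -3.54 and -3.08 in parental cells with RA and -4.59 and -3.96 in untreated parental cells. It was below background on both clone RA arrays and was at least 4.66-fold lower there than in parental cells with RA (adjusted p = 0.00681), or 7.39-fold without clone RA replicate 1 and 2.94-fold without replicate 2. Kcnk6 (TWIK-2) read -0.69 and -1.17 in the clone with RA, -1.27 and -1.51 in the untreated clone, -2.31 and -2.87 in parental cells with RA and -2.07 and -1.72 in untreated parental cells. The clone arrays were all above, by 1.66 ± 0.33 with RA (adjusted p = 0.0133) and 0.51 ± 0.33 without (adjusted p = 0.426), and the call was lost without clone RA replicate 1 (1.42, adjusted p = 0.053) or parental RA replicate 2 (1.38, adjusted p = 0.0629). Kcnk1 (TWIK-1) passed only on average. It read -2.73 and -2.29 in the clone with RA, -2.16 and -2.05 in the untreated clone, -3.26 and -3.44 in parental cells with RA and -2.55 and -2.62 in untreated parental cells, and the groups with RA in the clone and without RA in the parental line overlapped. The average difference was 0.66 ± 0.2 (adjusted p = 0.0438), lost on leaving out any array but clone RA replicate 1 (0.55 to 0.71).

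**Figure D3:**
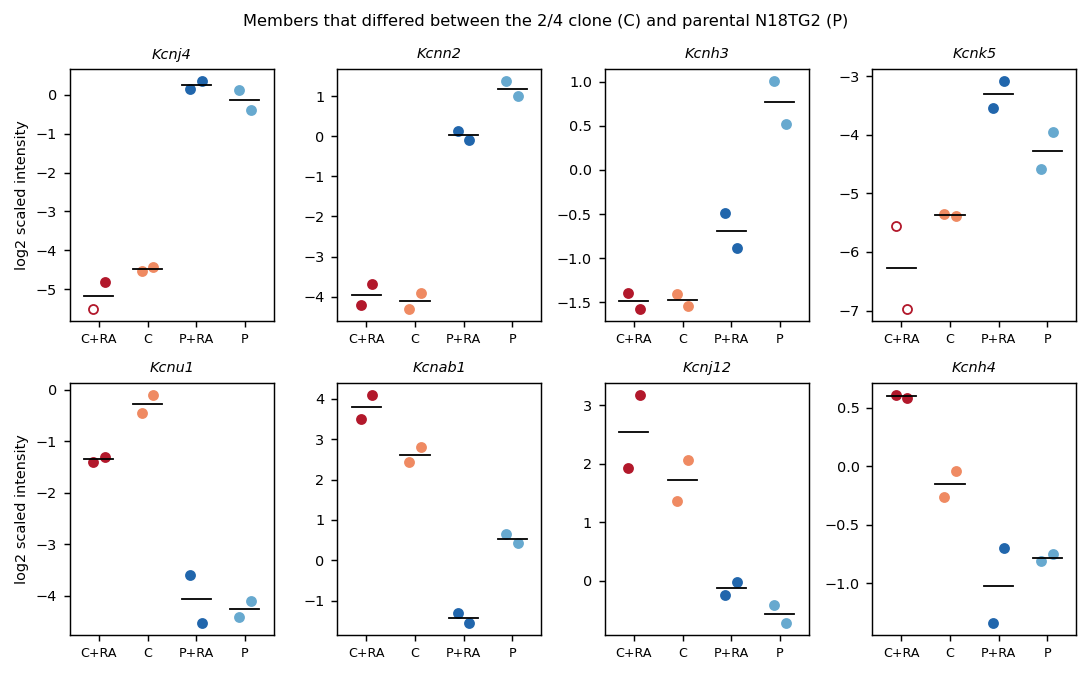
Log2 scaled intensity of 8 potassium channel genes that differed between the lines, on each array of the 2/4 clone with RA (C+RA), the untreated clone (C), N18TG2 with RA (P+RA) and untreated N18TG2 (P); each panel has its own scale. Filled points had a probe of the gene well above background on that array, open points had none, and lines are group means; Kcnj4, Kcnn2, Kcnh3 and Kcnk5 are lower in the clone and Kcnu1, Kcnab1, Kcnj12 and Kcnh4 higher.

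RA was given to ask how each line differentiates, and few potassium channels differed with RA. Within a line, RA, low serum and slide row cannot be told apart. In the clone, 6 genes were higher and 0 lower with RA (11.1%, against 4.63% of all genes, 2.58% higher and 2.05% lower), and in the parental line 1 was higher and 2 lower (5.56%, against 1.13%, 0.541% higher and 0.591% lower). Averaged over both lines, 3 were higher and 0 lower (5.56%, against 5.83%, 3.13% higher and 2.7% lower): Kcnj14 (3.02 ± 0.26), Kcnt1 (2.29 ± 0.23) and Kcnh6 (2.38 ± 0.39), with adjusted p of 0.00706, 0.00886 and 0.024. Kcnh6 was below background on every untreated array and parental RA replicate 1, and Kcnj14 in the untreated clone, so these sizes are fitted values. Kcnh6 passed the filter only through RA arrays, so its RA calls are no independent support. The Kcnh6 average call was lost under 10 of 17 alternatives (0.31 to 2.69), against 3 of 17 for Kcnj14 and 4 of 17 for Kcnt1. At an unadjusted p under 0.05, limma gave 14 genes in the clone, 7 in the parental line and 10 on average. The share of all genes at that threshold was not computed, so these counts are not read as a result. The median change was 0.44 for the clone and 0.04 for parental cells, beside 0.02 over all genes in each. Without clone RA replicate 1 the median in the clone was -0.03 and 3 genes passed, and without replicate 2 it was 0.82 and 12 passed. The count in the clone was also 0 without either untreated clone replicate and 2 without either untreated parental replicate. In the parental line it was 0 without any 1 of the 4 parental arrays and 1 without either untreated clone replicate. The average count was 9 without clone RA replicate 2, 0 without untreated clone replicate 2 or untreated parental replicate 1, 1 without untreated clone replicate 1, and 2 without either parental RA replicate or untreated parental replicate 2.

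RA responses in the lines rest on separate arrays. They had the same sign for 30 of 54 genes (55.6%, against 59.7% of all genes) and correlated at 0.12 across these genes, against 0.22 across all genes. Passing in both lines were 2 genes, Kcnj14, higher with RA in both, and Kcnmb2, higher with RA in the clone and lower in the parental line. The share of all genes passing in both lines was not computed, so the count of 2 is not read as a result.

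Kcnj14 (Kir2.4, an inward rectifier of motor neurons) changed most with RA in the parental line and also differed between the lines. It read -4.98 and -4.93 in the clone with RA, -6.75 and -7.64 in the untreated clone, 0.17 and -0.02 in parental cells with RA and -4.0 and -3.46 in untreated parental cells. The 4 groups did not overlap. Kcnj14 was higher with RA by 3.8 ± 0.37 in the parental line (13.9-fold, adjusted p = 0.0129), and at least 1.73-fold in the clone (adjusted p = 0.0283), where it was below background without RA. It was lower in the clone by -5.03 ± 0.37 with RA (adjusted p = 0.000312) and at least 4.05-fold without RA (adjusted p = 0.00196). The RA calls did not survive leaving out either parental RA or either untreated parental replicate in the parental line (3.53 to 4.08, adjusted p = 0.0903 to 0.121), nor, in the clone, clone RA replicate 1, either untreated clone replicate or either untreated parental replicate (1.8 to 2.68, adjusted p = 0.0552 to 0.188).

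Kcnmb2, a BK beta subunit that inactivates the channel, was the one gene whose RA response differed between the lines (1 higher and 0 lower of 54 genes, 1.85%, against 0.206% of all genes, 0.122% higher and 0.0838% lower). It read -1.5 and -2.02 in the clone with RA, -4.06 and -3.85 in the untreated clone, -4.27 and -4.65 in parental cells with RA and -2.0 and -2.65 in untreated parental cells. The clone with RA and the untreated parental line were high, and the untreated clone and the parental line with RA low. Kcnmb2 was higher with RA by 2.2 ± 0.35 in the clone (4.59-fold, adjusted p = 0.0256) and lower with RA by 2.13 ± 0.35 in the parental line (4.39-fold, adjusted p = 0.047). The interaction, the RA response of the clone minus that of the parental line, was 4.33 ± 0.5 (adjusted p = 0.0383). Compared by line, it was 2.7 ± 0.35 with RA (adjusted p = 0.00243) and -1.63 ± 0.35 without RA (adjusted p = 0.0308). The RA call was lost in the clone without clone RA replicate 1 or any 1 of the untreated arrays (1.94 to 2.3), in the parental line without any 1 of the parental or untreated clone arrays (-2.46 to -1.81), and the untreated line call without any 1 of the untreated arrays (-1.96 to -1.3). The interaction passed when clone RA replicate 2 was left out, and not when any other single array was (4.0 to 4.66, adjusted p = 0.0508 to 0.257). Slide row has the same pattern over the groups as this interaction, so row and interaction cannot be told apart.

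Kcnt1 (Slack, a sodium-activated pore) read 0.13 and -0.04 in the clone with RA, -3.74 and -3.39 in the untreated clone, -4.19 and -4.02 in parental cells with RA and -5.44 and -4.71 in untreated parental cells. The clone RA arrays stood far above the other 6, and untreated parental replicate 1 was below background. Kcnt1 was higher with RA by 3.61 ± 0.33 in the clone (12.2-fold, adjusted p = 0.0117), against a difference of 0.97 ± 0.33 in the parental line (adjusted p = 0.239), and the test of that contrast missed the threshold (2.64 ± 0.47, adjusted p = 0.0873). It was higher in the clone by 4.15 ± 0.33 with RA (adjusted p = 0.000401) and 1.51 ± 0.33 without (adjusted p = 0.0334). Over all alternatives run, the untreated line difference ranged from 0.1 to 1.88. The RA call was lost without either untreated clone replicate (3.44 and 3.78, adjusted p = 0.106 and 0.146), and the untreated line call on leaving out any array but the clone RA ones (1.14 to 1.88).

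Kcnh6 (ERG2) read -3.27 and -3.44 in the clone with RA, -6.57 and -7.83 in the untreated clone, -6.57 and -5.68 in parental cells with RA and -6.52 and -7.54 in untreated parental cells. Only the clone RA arrays and parental RA replicate 2 were above background. Kcnh6 thus entered the test only through RA arrays, mainly those of the group where it was high, and its calls are no independent support. With RA it was at least 5.25-fold higher in the clone (adjusted p = 0.0217), and it exceeded the parental line with RA by 2.77 ± 0.55 (adjusted p = 0.0131). Without either untreated clone replicate the RA call was lost (4.48 and 3.22, adjusted p = 0.106 and 0.166), and without parental RA replicate 1 the line call was (2.32, adjusted p = 0.0762). Its promoter, shown above, holds both parts of the REST site with 7 bases between them, and any part of REST in these values was not tested.

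Kcnc1, a Kv3 pore of fast-spiking neurons, read 0.62 and 0.73 in the clone with RA, -1.49 and -3.57 in the untreated clone, -0.44 and -1.14 in parental cells with RA and -1.2 and -1.88 in untreated parental cells. The clone RA arrays were the highest, and the untreated clone pair was the widest apart. Kcnc1 was higher with RA by 3.2 ± 0.66 in the clone (adjusted p = 0.0449), and the call was lost on leaving out any array but clone RA replicate 2 (2.16 to 4.24). Kcnmb4, the BK beta subunit of neurons, read 2.97 and 2.89 in the clone with RA, 1.51 and 1.18 in the untreated clone, 1.74 and 1.04 in parental cells with RA and 1.42 and 1.54 in untreated parental cells. The clone RA arrays lay above the other 6, which overlapped. These are values of its brighter probe, and its second probe is given below. Kcnmb4 was higher with RA by 1.58 ± 0.32 in the clone (adjusted p = 0.0433), and the clone with RA exceeded the parental line with RA by 1.54 ± 0.32 (adjusted p = 0.0152). The RA call was lost without clone RA replicate 1, either untreated clone or either untreated parental replicate (1.42 to 1.75, adjusted p = 0.0872 to 0.278), and the line call without parental RA replicate 2 (1.19, adjusted p = 0.0573). Kcnab1 fell with RA in the parental line by 1.98 ± 0.32 (adjusted p = 0.045), against a difference of 1.18 ± 0.32 in the clone (adjusted p = 0.0895), and the interaction missed the threshold (3.16 ± 0.45, adjusted p = 0.0631). Its parental call was lost without any 1 of the parental or untreated clone arrays (-2.1 to -1.86, adjusted p = 0.118 to 0.295).

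**Figure D4:**
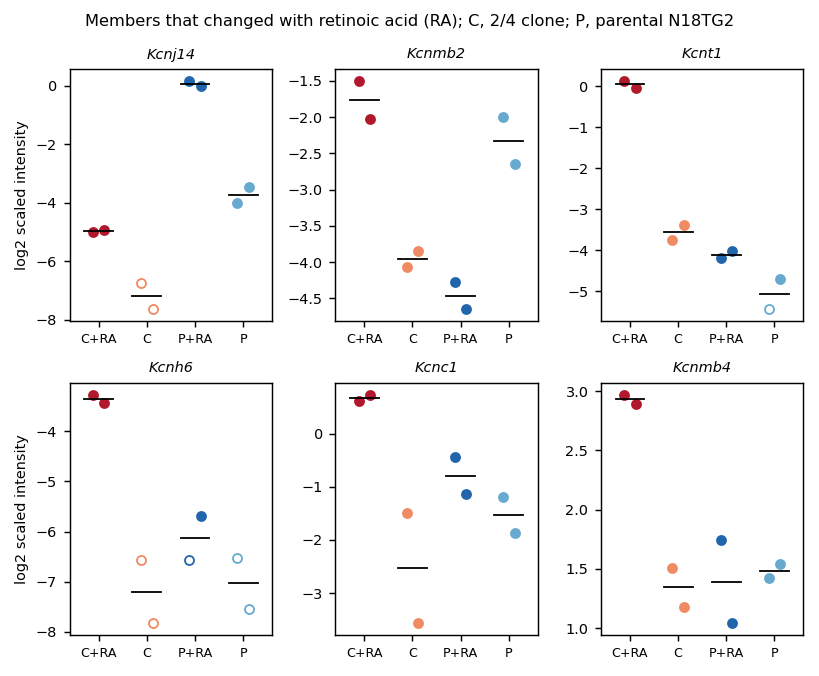
Log2 scaled intensity of 6 potassium channel genes that changed with RA in at least 1 line, on each array; C is the 2/4 clone and P is N18TG2, and each panel has its own scale. Filled points had a probe of the gene well above background on that array, open points had none, and lines are group means; Kcnmb2 is high in C+RA and P, and Kcnt1, Kcnh6, Kcnc1 and Kcnmb4 are highest in C+RA.

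No Kv4 gene passed in any comparison. Kcnd1, a Kv4 pore of the transient current, read 0.57 and 0.28 in the clone with RA, 0.67 and 0.77 in the untreated clone, 0.55 and 0.95 in parental cells with RA and 1.18 and 0.78 in untreated parental cells. The groups overlapped, and the line average was -0.29 (-0.79 to 0.21, adjusted p = 0.336). Kcna4, the transient Kv1 pore, gave -0.55 ± 0.27 for RA in the clone (adjusted p = 0.291) and 0.02 ± 0.27 between the untreated lines (-0.62 to 0.65, adjusted p = 0.979). In all, 27 of the 54 genes passed in at least 1 comparison and 27 in none. The share of all genes passing in at least 1 comparison was not computed, so this count is not read as a result. Besides Kcnd1 and Kcna4, those with no call included Kcna3, Kcna5, Kcna7, Kcnc4, Kcnd3, Kcng2, Kcnh2, Kcne1l, Kcne3, Kcnip1, Kcnrg, Kcnn4, Kcnj9, Kcnj11, Kcnj13, Kcnk3, Kcnk4, Kcnk7, Kcnk9, Kcnk12, Kcnk13, Kcnk15 and Kcnk16. Kcnj11, the pore of the ATP-sensitive channel, read -2.84 and -5.97 in the clone with RA, -6.07 and -6.5 in the untreated clone, -7.54 and -6.86 in parental cells with RA and -6.82 and -7.8 in untreated parental cells. It was above background only in the clone with RA, and its bound of 2.76-fold over parental cells with RA (adjusted p = 0.0734, no call) rests on clone RA replicate 1, without which no bound remained.

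Probes of 1 gene did not always give the same result, and were set side by side with p-values adjusted over all 36616 probes kept. Kcne1l, a single-span subunit of the MinK family, did not pass by its brighter probe, A_55_P2172832 (-0.74 ± 0.45 with RA and 0.27 ± 0.45 without, adjusted p = 0.298 and 0.791). Its second probe, A_51_P160673, read -7.0 and -8.18 in the clone with RA, -7.67 and -7.91 in the untreated clone, -1.45 and -1.74 in parental cells with RA and -1.53 and -1.69 in untreated parental cells. It was below background on all 4 clone arrays and above it on all 4 parental arrays. By that probe Kcne1l was at least 15.3-fold lower in the clone with RA (adjusted p = 0.00043), or 24.3-fold without clone RA replicate 1 and 9.66-fold without replicate 2, and at least 17.5-fold lower without (adjusted p = 0.000607).

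Kcnj14 also had a second probe. That probe, A_55_P1955522, read -4.32 and -6.02 in the clone with RA, -6.02 and -6.22 in the untreated clone, -4.4 and -3.26 in parental cells with RA and -6.74 and -7.73 in untreated parental cells. With RA in the parental line it gave at least 2.4-fold (adjusted p = 0.0916, past no threshold), and its line difference with RA was -1.34 and did not pass (adjusted p = 0.208). Without RA it was below background on all 4 arrays and gives no line difference. In the clone with RA, the first probe was above background only on replicate 2 and the second only on replicate 1. For Kcnc1, the 3 probes gave 2.6 ± 0.41, 2.83 ± 0.58 and 3.2 ± 0.67 for RA in the clone (adjusted p = 0.0344, 0.0557 and 0.0592), so that 1 passed over all probes. The probe A_52_P867058, of another transcript of Kcnc1, was at least 6.25-fold higher in the clone with RA than in parental cells with RA (adjusted p = 0.005). The second probe of Kcnmb2 was above background on clone RA replicate 1 and untreated parental replicate 2 only, and its interaction of 5.35 ± 1.16 had the same sign as the first but did not pass (adjusted p = 0.164), and over all probes the first missed the threshold too (adjusted p = 0.0652). A second probe of Kcne3, a MinK relative, was above background only in the clone with RA and at least 3.08-fold higher than in parental cells with RA (adjusted p = 0.00462). That probe was kept only through the clone RA arrays, where it was high. For Kcnip3, the average line difference was -0.68 ± 0.21 by the first probe and 0.1 ± 0.34 by the second (limma adjusted p = 0.0538 and 0.855 over all probes). The second probe of Kcnmb4 gave 1.56 ± 0.43 for RA in the clone and 0.78 ± 0.43 between the lines with RA. Neither passed (limma adjusted p = 0.109 and 0.253 over all probes).

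**Figure D5:**
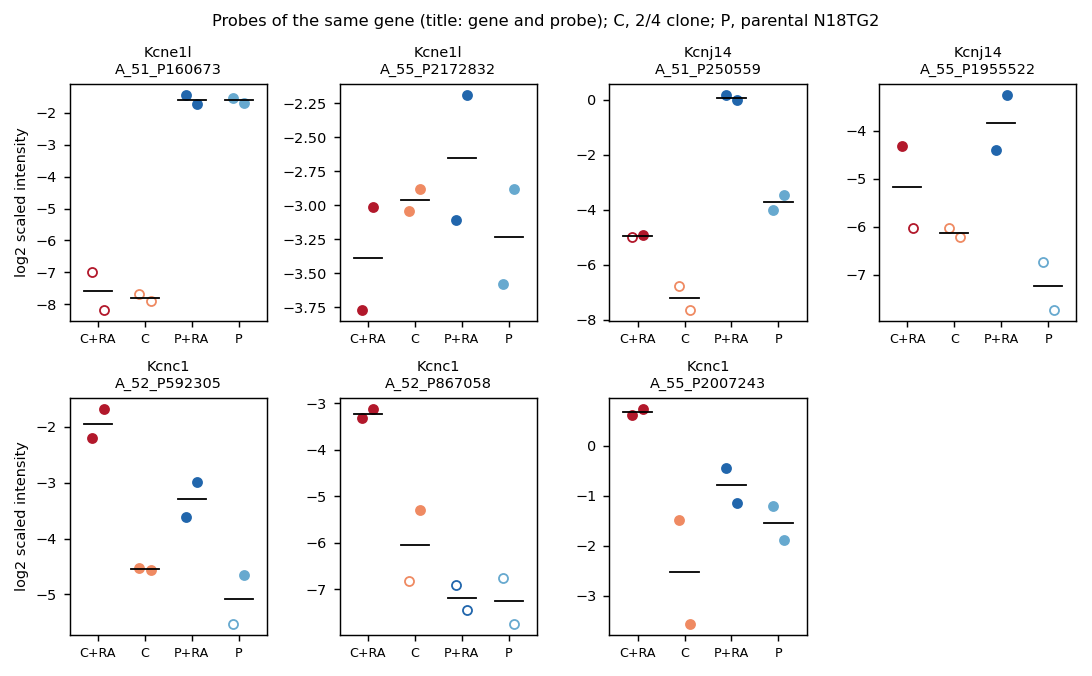
Log2 scaled intensity of each kept probe of Kcne1l, Kcnj14 and Kcnc1 on each array; C is the 2/4 clone and P is N18TG2, and each panel has its own scale. Filled points were well above background and open points were not, and lines are group means; the probe A_51_P160673 of Kcne1l is filled on the 4 parental arrays only, while A_55_P2172832 is filled on all 8.

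Partner genes outside the Kcn names were taken from lists chosen with results of these data known. Of 7 genes that cluster or anchor Kv channels, 6 were higher and 0 lower in the clone with RA (12.9% and 10.2% of all genes), and 2 were higher and 0 lower without RA (6.14% and 3.7% of all genes). Akap5, an anchor of kinases at KCNQ channels, read 0.0 and -0.45 in the clone with RA, -1.84 and -1.94 in the untreated clone, -3.03 and -3.86 in parental cells with RA and -3.75 and -3.63 in untreated parental cells. Its clone arrays were all above its parental arrays, by 3.22 ± 0.35 with RA (adjusted p = 0.00125). The others were Cntnap2 (Caspr2, which gathers Kv1 channels beside the node of Ranvier; at least 5.76-fold), its partner Cntn2 (at least 2.72-fold, and 1.6-fold without clone RA replicate 1 or 4.63-fold without replicate 2), Lgi1 (3.1 ± 0.39) and its receptor Adam22 (1.95 ± 0.32), and the axonal anchor Ank3 (2.63 ± 0.48), with adjusted p of 0.0042, 0.0455, 0.00216, 0.00593 and 0.00909. Cntnap2 passed the filter only through the clone RA arrays, and Cntn2 only through clone arrays, where each was high. Dlg4 did not pass. Of 10 pumps and cotransporters that move potassium, 3 were higher and 0 lower in the clone with RA (12.9% and 10.2% of all genes). They were the chloride extruder Slc12a5 (KCC2), its relative Slc12a7 and the pump subunit Atp1b1. Another pump subunit, Atp1b2, passed for RA in the clone (1.45 ± 0.25, adjusted p = 0.0301). Slc12a5 read 3.41 and 3.44 in the clone with RA, 2.38 and 2.22 in the untreated clone, -0.01 and -0.64 in parental cells with RA and 0.98 and 1.22 in untreated parental cells. Its line difference with RA was 3.75 ± 0.31 (adjusted p = 0.000425). All its clone arrays exceeded its parental arrays. Of the Kv4 and BK partners tested, 1 of 6 passed between the lines, against 23.2% of all genes with RA and 9.84% without. It was the BK subunit Lrrc55, higher in the clone (2.83 ± 0.27 with RA and 2.08 ± 0.27 without, adjusted p = 0.000688 and 0.00419). Of the HCN pacemaker channels 1 of 3 passed, Hcn3, higher in the clone with RA (1.21 ± 0.33, adjusted p = 0.0382), and of the sulphonylurea receptors of the ATP-sensitive channel 0 of 1. Counts this small are not read as results about these lists. Of the modulators of potassium channels, the kinase Sgk1 was higher in the clone than in the parental line with RA (1.69 ± 0.35, adjusted p = 0.0149).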

How the data were processed

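Expression was measured in total RNA on 8 one-colour arrays, 2 in each of the 4 groups, which were taken from the sample titles. Per the file headers, the deposited intensity values had their background subtracted and spatial trend removed in Feature Extraction 10.7.3.1. The authors' series table, on a log2 scale, differed from the scaled values by 1 constant per array and served as an alternative. Here, control and outlier spots were left out, log2 intensity was taken minus the 75th percentile of the array, spots of a probe were averaged, probes well above background (by most of their spots) on at least 2 arrays were kept, and the brightest probe by mean stood for a gene.

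A limma 3.58.1 model (R 4.3.3) with 1 mean per group and 4 residual degrees of freedom was fitted to all 26247 genes, tested on simulated data, with Benjamini-Hochberg adjustment over all of them. A gene below background on both arrays of a group has a bound ("at least"): the mean of the bright group against the lowest signal well above background, or the own signal of the probe if higher, on the dim arrays. The number of arrays limits the precision. Values are given for members called, for the member with the smallest adjusted p where a subfamily had no call, and for bounds of at least 4-fold. The members, lists and this rule were chosen with earlier results of these data known. Alternatives were other background corrections, normalizations, filters, floors, probe summaries, variance models and sample sets, blocks for the side and row of the slide, and leaving out each array, where the lone array of a group is assumed to vary like the others. Normexp used median spot signals. Results for some members and listed genes are not reported here. Bounds without 1 array were added after seeing the data.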

Additional observations from a re-analysis of the deposited data

Results flagged for a closer look

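Kcnmb2 was the potassium channel gene whose RA response differed between the 2/4 clone and N18TG2 by the test of the difference itself. The interaction was 4.33 on the log2 scale (limma adjusted p = 0.0383 over 26247 genes), with both clone RA arrays above both untreated clone arrays and both parental RA arrays below both untreated parental arrays. The call was lost under 11 of 17 alternatives, in which the interaction kept its sign (2.53 to 4.84). With limma p adjusted over all probes, neither Kcnmb2 probe passed (adjusted p = 0.0652 and 0.164). Slide row has the same pattern over the groups as this interaction, so row and interaction cannot be told apart.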

How the results depend on the processing

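Each count of potassium channel genes called, median and called gene was recomputed under each alternative. Of 67 calls (a gene in a comparison), 65 were kept with the series table values, 62 with slide side as a block or a trended and robust variance, 61 with the mean of probes, 58 with a floor, 50 with quantile normalization, 39 of 67 with no filter and 34 with normexp, and 36 to 62 on leaving out an array. Of 39 calls that could be made with only the groups compared, 23 were kept, and 35 of 35 with probes above background on all 8 arrays. The sign turned for Kcnj15 on average between the lines alone (-0.01, normexp). With normexp the counts were 12 for the line with RA, 12 for the line average, 2 for RA in the clone, 1 for RA in the parental line, 1 for the RA average and 0 for the interaction. With probes above background on all arrays, where fewer genes are tested, they were 13 for the line with RA, 15 for the line average, 1 for the RA average and 2 for the interaction. With only the groups compared, which leaves fewer samples, they were 13 for the line with RA, 0 for RA in the clone and 1 for RA in the parental line. With no filter they were 0 for RA in the clone, 0 for RA in the parental line and 0 for the interaction. The interaction gave 0 with the mean of probes or the side block, 2 with a floor or quantile normalization and 3 with a trended variance, which gave 5 for the RA average (1 with quantile normalization). The median for RA in the clone was 0.056 with quantile normalization. With no filter and with normexp, medians were -0.327 and -0.313 for RA in the parental line and -0.323 and -0.274 for the untreated line, and 0.937 for the interaction with no filter. The cause of these shifts was not tested. Under the looser detection flag (positive and significant), 69 genes were detected on both clone RA arrays. Leaving out each array gave counts of 4 to 11 for the untreated line, 13 to 26 for the line with RA, 13 to 29 for the line average, 0 to 12 for RA in the clone, 0 to 3 for RA in the parental line, 0 to 9 for the RA average and 0 to 6 for the interaction. Medians then ran from 0.085 to 0.336, 0.173 to 1.134, 0.224 to 0.483, -0.032 to 0.822, -0.059 to 0.036, -0.043 to 0.325 and -0.004 to 0.964 in the same order. No paired analysis was possible because the labels give no shared replicate numbers, and the block above stands for a position on the slide. Signal over background limits the dim genes, and 23 genes were below background on all arrays.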
